A study of Homo sapiens with 9 samples.

Results

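The metallothionein genes, the transcription factor gene MTF1 and the zinc exporter gene SLC30A1 were followed in Huh-7 cells that lacked apolipoprotein B or the microsomal triglyceride transfer protein. The 10 genes were MT2A, MT1F, MT1G, MT1X, MT1E, MT1M, MT1A, MT1H, MTF1 and SLC30A1, taken by gene name from a table of 58735 genes. They were chosen with earlier results of the same libraries known, chiefly the low metallothionein counts in the apolipoprotein B knockout. Values of the 10 genes in that knockout, against control cells or against the other knockout, are therefore a description, and no p is attached to them. The same holds for their values in the other knockout against control cells, because that comparison reuses the control libraries.

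RNA was sequenced from 9 libraries in 3 groups of 3. Huh-7 is a human hepatoma line, and Huh-7 control cells carried neither knockout. Ako-3 cells are a CRISPR-Cas9 knockout clone of APOB, which encodes the structural protein of very low density lipoprotein. Mko-3 cells are a knockout clone of MTTP, whose protein loads lipid onto apolipoprotein B. Each knockout was a single clone derived by limiting dilution, so a change due to the targeted gene and a difference that came with the clone cannot be told apart. All cells of all groups were kept overnight in medium without serum before RNA was taken. The labels name the 3 libraries of a group as biological replicates and do not say whether these were separate cultures, so p values measure the spread between these libraries.

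Metallothioneins are small cysteine-rich proteins that bind zinc and copper and, after exposure, cadmium. MTF1 is a zinc finger factor that senses free zinc in the cell and binds short DNA elements, the metal response elements, before metallothionein genes and before SLC30A1. SLC30A1, also called ZnT1, exports zinc across the plasma membrane. In liver, metallothionein genes respond to metals, to glucocorticoids and to acute phase signals.

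The 8 metallothionein genes among the 10 lie in 1 cluster on chromosome 16 (hg38), at 16q13, in which MT2A is at 56608199 to 56609497, MT1E at 56625475 to 56627112, MT1M at 56632233 to 56633986, MT1A at 56638666 to 56640087, MT1F at 56657694 to 56660698, MT1G at 56666731 to 56668065, MT1H at 56669814 to 56671129 and MT1X at 56682424 to 56684196. MT1G is on the minus strand and the other 7 are on the plus strand. In GENCODE release 44 the canonical transcript has 3 exons in 7 of the 8 genes and 2 exons in MT1E. MTF1 (37809567 to 37859620) and SLC30A1 (211571568 to 211578742) are both on the minus strand of chromosome 1.

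Sequence before the start was held for 5 of the 10 genes, MT2A, MT1X, MT1H, MTF1 and SLC30A1. It is shown for 3 of them, the most abundant metallothionein, the MT1 gene whose counts moved differently from it, and the exporter, because all are known to carry metal response elements. Each line holds the 250 bases before the RefSeq start on GRCh38.p14, in the direction of the gene. Capitals mark matches to the core of the metal response element, searched as TGCACNC and TGCGCNC on both strands.
MT2A, chr16:56608334-56608583, plus strand: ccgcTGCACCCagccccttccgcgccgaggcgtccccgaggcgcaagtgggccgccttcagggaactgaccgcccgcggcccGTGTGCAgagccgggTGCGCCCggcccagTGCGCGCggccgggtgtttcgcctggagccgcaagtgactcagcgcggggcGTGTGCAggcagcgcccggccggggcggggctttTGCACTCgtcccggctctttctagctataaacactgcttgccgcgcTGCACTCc
MT1X, chr16:56682220-56682469, plus strand: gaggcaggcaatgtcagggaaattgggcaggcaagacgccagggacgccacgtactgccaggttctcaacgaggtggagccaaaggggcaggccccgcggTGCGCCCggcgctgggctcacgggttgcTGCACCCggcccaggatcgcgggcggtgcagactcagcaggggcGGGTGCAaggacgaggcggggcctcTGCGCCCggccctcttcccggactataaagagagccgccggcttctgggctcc
SLC30A1, chr1:211579162-211579411, minus strand: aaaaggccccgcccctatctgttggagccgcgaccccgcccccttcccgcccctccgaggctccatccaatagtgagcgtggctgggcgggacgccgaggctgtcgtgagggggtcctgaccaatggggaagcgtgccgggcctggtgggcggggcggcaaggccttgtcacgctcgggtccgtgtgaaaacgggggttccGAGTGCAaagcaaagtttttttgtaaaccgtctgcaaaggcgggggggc
The MT2A stretch held 7 matches, and 0.0313% of 35116 RefSeq promoter stretches of the same length held as many. The MT1X stretch held 4 matches (0.37% held as many), and the MT1H stretch held 8 (0.0171%). SLC30A1 had 1 match, and 24.8% of promoters held at least 1. MTF1 had 0 matches in this window. A match is a run of letters and was not tested for binding. The MT2A gene model of the count table starts before this window, at 56608199, and the MT1X window runs into the gene model that starts at 56682424.

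The libraries held 14638727 to 20179760 counts on genes. The targeted genes followed the labels. Levels are given as CPM, counts scaled to a common library size with TMM factors. APOB stood at 1260 to 1422 CPM in Ako-3 and 2688 to 3878 in control libraries, and MTTP at 83.0 to 90.8 CPM in Mko-3 and 604 to 664 in control libraries. All 9 hepatocyte markers examined were at 10 CPM or more in every library. The fibroblast list of 5 genes summed to 4.12 to 8.87 CPM and the leukocyte list of 4 genes, mostly CD14, summed to 5.09 to 11.2 CPM. The endothelial list of 3 genes summed to 76.2 to 86.8 CPM in control, 104.8 to 113.9 in Ako-3 and 55.1 to 60.5 in Mko-3 libraries. Most of that sum was PECAM1, at 72.3 to 80.8 CPM in control, 101 to 109 in Ako-3 and 48.0 to 52.9 in Mko-3 libraries. CDH5 did not follow it, at 3.8 to 6.0, 3.3 to 4.8 and 5.3 to 7.3 CPM, and VWF had at most 5 counts in a library. The biliary keratin gene KRT7 had 0 counts throughout, while KRT19 was at 9.39 to 9.47 CPM in control, 12.8 to 14.3 in Ako-3 and 68.7 to 73.6 in Mko-3 libraries, and SOX9 at 329 to 384, 247 to 264 and 262 to 268 CPM. The part of these marker differences in the metallothionein values was not tested.

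Counts of metallothionein genes were lower in both knockout clones than in control cells, and more so in Ako-3 cells. Summed over all 17 metallothionein genes and pseudogenes in the files, control libraries held 1447, 837 and 1028 counts, Ako-3 libraries 110, 74 and 68, and Mko-3 libraries 266, 279 and 260. As CPM these were 63.4 ± 12.5 in control, 4.81 ± 1.66 in Ako-3 and 16.01 ± 0.953 in Mko-3 cells (SD, n = 3 each). The summed level was thus 13.2-fold lower in Ako-3 and 3.96-fold lower in Mko-3 than in control cells, and 3.33-fold higher in Mko-3 than in Ako-3 cells. The lowest control library lay above the highest Mko-3 library, and the lowest Mko-3 library above the highest Ako-3 library. The sum does not depend on how reads are divided among similar genes, but reads discarded for matching several of them would be missing from it. In bulk RNA, fewer cells with metallothionein RNA and less of it per cell cannot be told apart.

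**Figure D1:**
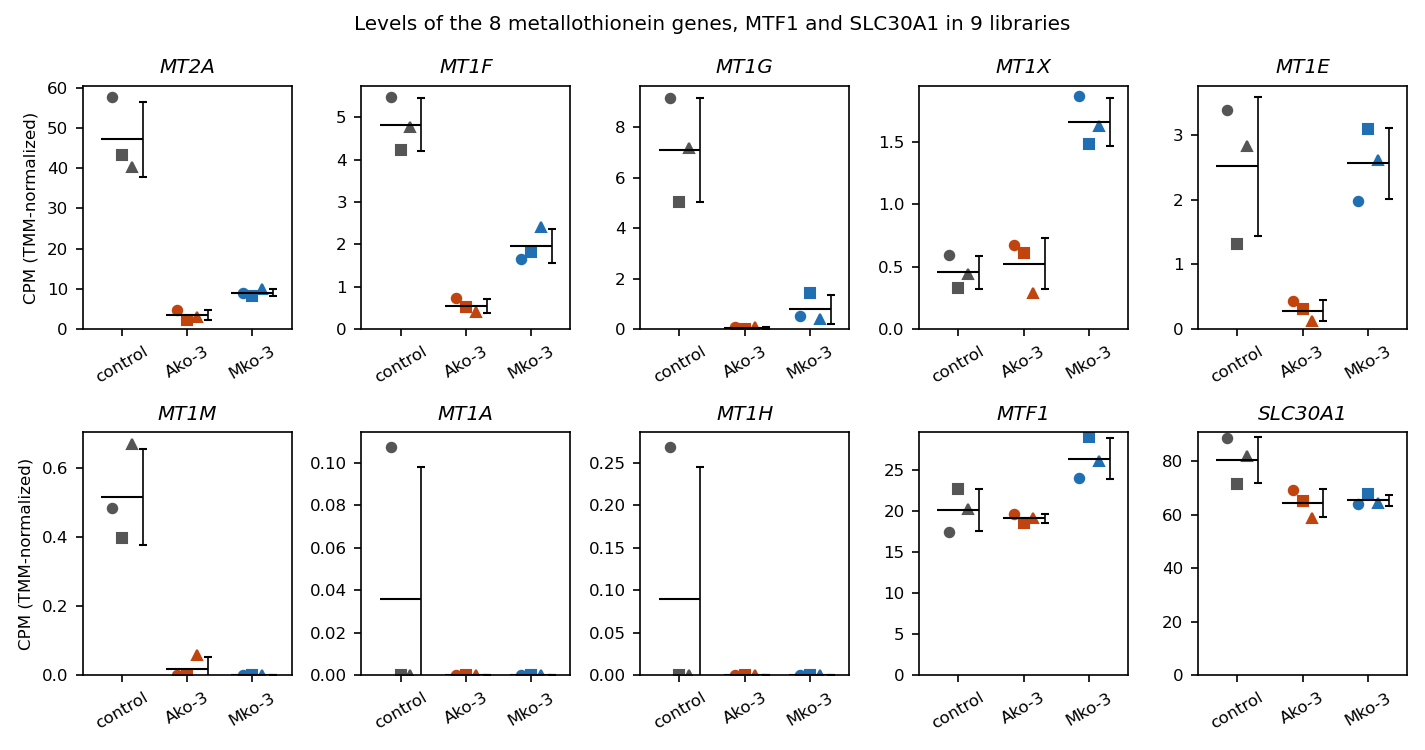
Level of each of the 10 genes (y axis, TMM-normalized CPM, linear from 0) in control (grey), Ako-3 (red) and Mko-3 (blue) libraries. Circles, squares and triangles are replicates 1, 2 and 3, horizontal lines are group means and bars are SD (n = 3). MT2A, MT1F and MT1G are high in control cells, MT1X is high in Mko-3 cells at 1.49 to 1.87 CPM, and MT1E stands near 2.5 CPM in control and Mko-3 cells.

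MT2A, the main metallothionein of most human cells, gave most of these counts. It had 57.6, 43.4 and 40.4 CPM in the control libraries, 4.77, 2.35 and 3.02 in the Ako-3 libraries and 9.02, 8.12 and 9.87 in the Mko-3 libraries. The 3 groups did not overlap. The Ako-3 libraries held between 4.98% and 10.1% of the control mean, and the Mko-3 libraries between 17.2% and 20.9%. The fitted log2 fold change against control was -3.83 (SE 0.22) in Ako-3 cells, which is 14.2-fold lower.

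MT1G was the MT1 gene with the highest level per gene length in control cells, at 9.38 ± 2.71 FPKM, the deposited values scaled by gene length and library size, against 35.9 ± 7.03 FPKM for MT2A (SD, n = 3 each). Control libraries had 170, 76 and 129 counts of MT1G, whereas Ako-3 libraries had 1, 0 and 1 and Mko-3 libraries 9, 25 and 6. Ako-3 cells were therefore at the limit of detection, with 2 counts over the group against 375 in control cells. The ratio of counts, scaled for library size, was 193, with an exact 95% interval of 53.0 to 1600 that covers counting error only. Replicate 2 stood apart in Mko-3 cells, at 1.43 CPM against 0.51 and 0.39 CPM in the other 2 libraries.

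MT1F and MT1E were both lower in Ako-3 than in control cells, but parted in Mko-3 cells. MT1F was at 5.49, 4.23 and 4.78 CPM in control, 0.73, 0.51 and 0.41 in Ako-3 and 1.64, 1.83 and 2.42 in Mko-3 libraries. MT1E was at 3.39, 1.32 and 2.84 CPM in control, 0.43, 0.31 and 0.12 in Ako-3 and 1.98, 3.09 and 2.61 in Mko-3 libraries. The MT1F groups did not overlap, while the MT1E values of Mko-3 libraries fell within the range of the control libraries. Against control, Ako-3 cells had a fitted log2 fold change of -3.14 (SE 0.28) for MT1F and -3.15 (SE 0.449) for MT1E. These rest on 29 counts of MT1F and 15 of MT1E in the 3 Ako-3 libraries.

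MT1X had a different pattern. Control libraries had 0.59, 0.33 and 0.44 CPM, Ako-3 libraries 0.67, 0.61 and 0.29, and Mko-3 libraries 1.87, 1.49 and 1.63. The control and Ako-3 ranges overlapped, and every Mko-3 library was above every library of the other groups. In Ako-3 cells the log2 fold change against control was 0.18, with a 95% interval of -0.79 to 1.14. The counts behind it were 24 in control and 28 in Ako-3 cells, so this depth leaves a wide interval that holds both a rise and a fall.

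The remaining metallothionein genes were near the floor, which was set at 3 counts. MT1M had 9, 6 and 12 counts in control libraries, 0, 0 and 1 in Ako-3 libraries and 0 in each Mko-3 library. With 3 counts over the group taken as the Mko-3 level, MT1M was 8.78-fold lower in Mko-3 than in control cells. This ratio has no interval and is not a lower bound. In Ako-3 cells its scaled count ratio was 27.8 (exact 95% interval 4.58 to 1140, counting error only). MT1A had 2 counts and MT1H 5 counts, all in control replicate 1, and neither had a count in any knockout library. MT1B, not among the 10, had 26 counts in control cells and 1 in each clone, and the pseudogene MT1L had 12, 0 and 1 in control, Ako-3 and Mko-3 cells. MT3, MT4, MT1JP, MT1CP and MT1IP had no count in any library, and MT1DP and MT1XP1 had 1 count each, in control cells. TESMIN, a testis-expressed gene once named as a metallothionein-like gene, stood at 19.5, 18.7 and 15.04 CPM in control, Ako-3 and Mko-3 cells.

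Control replicate 1 was the highest control library for 8 of the 10 genes, all but MT1M and MTF1. Without it the summed log2 ratio was -3.55 in Ako-3 cells and -1.81 in Mko-3 cells, against -3.72 and -1.99 with all control libraries.

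MTF1, whose protein acts on the metallothionein promoters, and SLC30A1 varied far less. MTF1 was at 17.5, 22.7 and 20.2 CPM in control, 19.7, 18.6 and 19.2 in Ako-3 and 24.1, 29.1 and 26.2 in Mko-3 libraries. The control and Ako-3 ranges overlapped, with a log2 fold change of -0.08 (SE 0.107), and all Mko-3 libraries were above the other 6. SLC30A1 was at 88.4, 71.3 and 81.7 CPM in control, 69.0, 65.0 and 58.8 in Ako-3 and 64.0, 67.6 and 64.4 in Mko-3 libraries. Both clones lay below every control library, and the ranges of the clones overlapped. In Ako-3 cells the log2 fold change of SLC30A1 was -0.33 (SE 0.0829), a 1.26-fold lower level.

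Per gene length, the order of the 10 genes differed between groups. In control cells MT2A led, at 35.9 ± 7.03 FPKM, followed by SLC30A1 at 14.5 ± 1.54 and MT1G at 9.38 ± 2.71 FPKM (SD, n = 3 each). MT1F, MTF1 and MT1E came next at 2.53 ± 0.328, 2.49 ± 0.323 and 2.36 ± 1.00 FPKM, which differ by less than their spread on this scale. SLC30A1 led in both clones, at 11.6 ± 0.914 FPKM in Ako-3 and 11.8 ± 0.333 in Mko-3 cells, above MT2A at 2.56 ± 0.953 and 6.86 ± 0.689 FPKM. The deposited gene lengths are those of all exons of a gene together, 1299 bases for MT2A and 1773 for MT1X, where the canonical transcripts have 401 and 404. The order depends on the length used. With the canonical lengths, a setting chosen after seeing the data, MT2A in Mko-3 cells was at 22.2 ± 2.23 FPKM and above SLC30A1 at 11.0 ± 0.309. In control cells MT1G, at 17.2 ± 4.96 FPKM, was then above SLC30A1 at 13.5 ± 1.43, by less than its spread. MT1F, at 11.2 ± 1.46 FPKM in control cells, was then well above MT1E at 3.33 ± 1.42 and MTF1 at 2.51 ± 0.327, so the likeness of these 3 genes holds for the deposited lengths only.

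Whether the genes differed between groups was tested with edgeR over all genes. A call needed a log2 fold change of 1 or more in size and a p, adjusted after Benjamini and Hochberg, no higher than 0.05. Of the 10 genes, 7 passed the filter on low counts in each comparison with control and 6 in the comparison of the clones. MT1M, MT1A and MT1H passed in none, and MT1G did not pass between the clones. Several passed only through the group in which they are high. These were MT1F, MT1G and MT1E through control libraries in the Ako-3 comparison, MT1G through control and MT1X through Mko-3 libraries in the Mko-3 comparison, and MT1F, MT1X and MT1E through Mko-3 libraries between the clones. A gene that passed in this way was kept for being high in 1 group, which favours a difference. Its values therefore carry no p, and the numbers of genes called support nothing by themselves. In Ako-3 against control, MT2A, MT1F, MT1G and MT1E met the call, all lower. Over the 15787 genes tested, 5.00% were called lower and 3.52% higher (8.52% in all). Since the genes were chosen from that contrast, nothing is read from their number.

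In Mko-3 against control, 3 of the 7 genes tested were called lower and 1 higher, where 7.22% and 3.82% of 15745 genes were called lower and higher (11.0% in all). MT2A was 5.29-fold lower (log2 -2.40, SE 0.132). MT1F was 2.50-fold lower (log2 -1.32, SE 0.221). MT1G was 9.05-fold lower (log2 -3.18, SE 0.349), and without Mko-3 replicate 2 its log2 fold change was -3.96. MT1X was 3.53-fold higher (log2 1.82, SE 0.374). MT1E was not called (log2 -0.01, 95% interval -0.57 to 0.55). This comparison uses the same control libraries as that of Ako-3 cells, so the values are not independent of the choice of genes. They are a description and carry no p.

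MTF1 and SLC30A1 were under the fold threshold in Mko-3 cells, and their values are a description too. MTF1 was 1.31-fold higher than in control (log2 0.38, SE 0.107), and SLC30A1 was 1.24-fold lower (log2 -0.31, SE 0.0779). At any fold, 26.9% of all genes tested were higher and 27.1% lower by an adjusted p of 0.05, so changes under the threshold were common in Mko-3 cells.

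**Figure D2:**
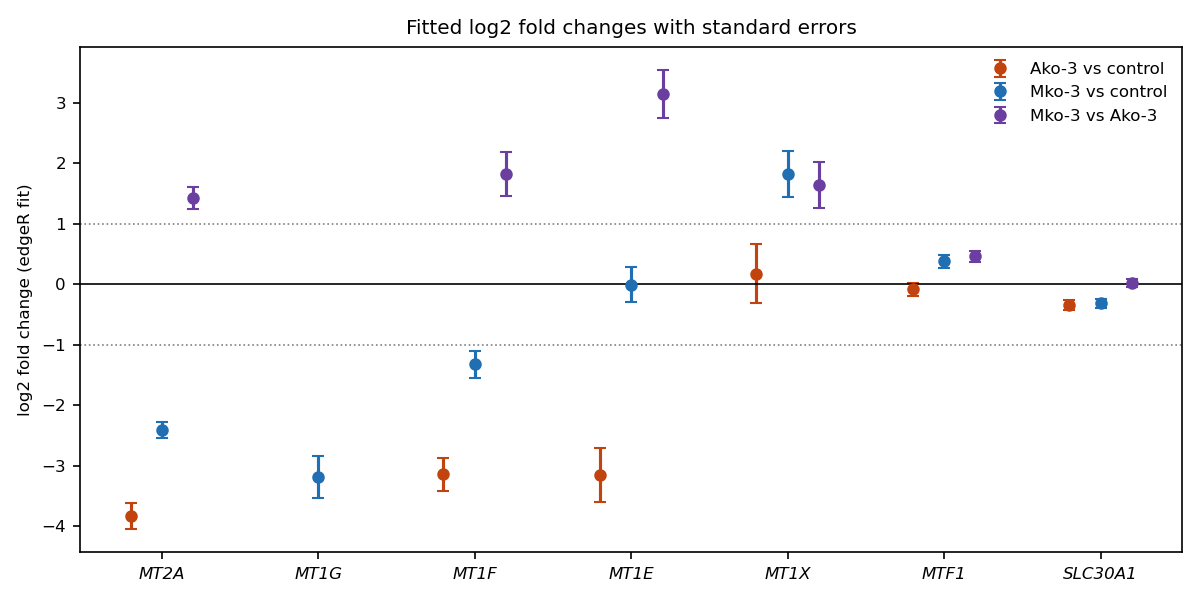
Fitted log2 fold changes (y axis) of the genes that passed the filter on low counts, in Ako-3 against control (red), Mko-3 against control (blue) and Mko-3 against Ako-3 (purple). Points are edgeR estimates, bars are SE, and dotted lines mark the threshold of 1. MT1G is drawn for Mko-3 against control only, because Ako-3 cells had 2 counts of it. MT2A, MT1F and MT1E lie between -3.83 and -3.14 in Ako-3 cells, while in Mko-3 cells MT1X is at 1.82 and MT1E at -0.01.

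The clones were compared directly to set the knockouts side by side, as a description, since the genes were chosen from the Ako-3 libraries. Of 6 genes tested, 4 were called higher in Mko-3 than in Ako-3 cells and 0 lower, where 2.26% of 15528 genes were called higher and 3.47% lower (5.73% in all). MT1E differed most, at 8.86-fold (log2 3.15, SE 0.395). MT1F was 3.54-fold higher (log2 1.82, SE 0.362), MT1X 3.13-fold (log2 1.65, SE 0.378) and MT2A 2.69-fold (log2 1.43, SE 0.177). For MT1G, with 40 counts in Mko-3 and 2 in Ako-3 cells, the scaled count ratio was 21.1 (exact 95% interval 5.47 to 180, counting error only), and the groups did not overlap. MTF1 was 1.38-fold higher (log2 0.46, SE 0.0868) and under the fold threshold, where 21.1% of all genes were higher at any fold by an adjusted p of 0.05. For SLC30A1 the log2 difference was 0.02, with a 95% interval of -0.09 to 0.14.

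The make-up of the metallothionein counts differed between groups as well as their sum. MT2A made up 74.3% ± 3.89 of the counts in control, 69.8% ± 7.21 in Ako-3 and 56.2% ± 4.71 in Mko-3 libraries (SD, n = 3 each). MT1X had 0.712% ± 0.0996 in control, 11.2% ± 4.55 in Ako-3 and 10.4% ± 1.70 in Mko-3 libraries. The share of MT1X was higher in every library of both clones than in any control library, although its level in Ako-3 cells overlapped that of control cells. MT1G went from 11.1% ± 1.82 in control to 0.793% ± 0.742 in Ako-3 and 4.88% ± 3.57 in Mko-3 libraries, and MT1E from 3.90% ± 1.34 to 5.80% ± 2.63 and 16% ± 3.14. For each 100 counts of MT2A, control libraries had 0.762 to 1.10 counts of MT1X, Ako-3 libraries 9.62 to 26.1 and Mko-3 libraries 16.6 to 20.8. MT1F kept closer to MT2A, with 9.52 to 11.8 counts for each 100 of MT2A in control, 13.5 to 21.7 in Ako-3 and 18.2 to 24.5 in Mko-3 libraries.

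**Figure D3:**
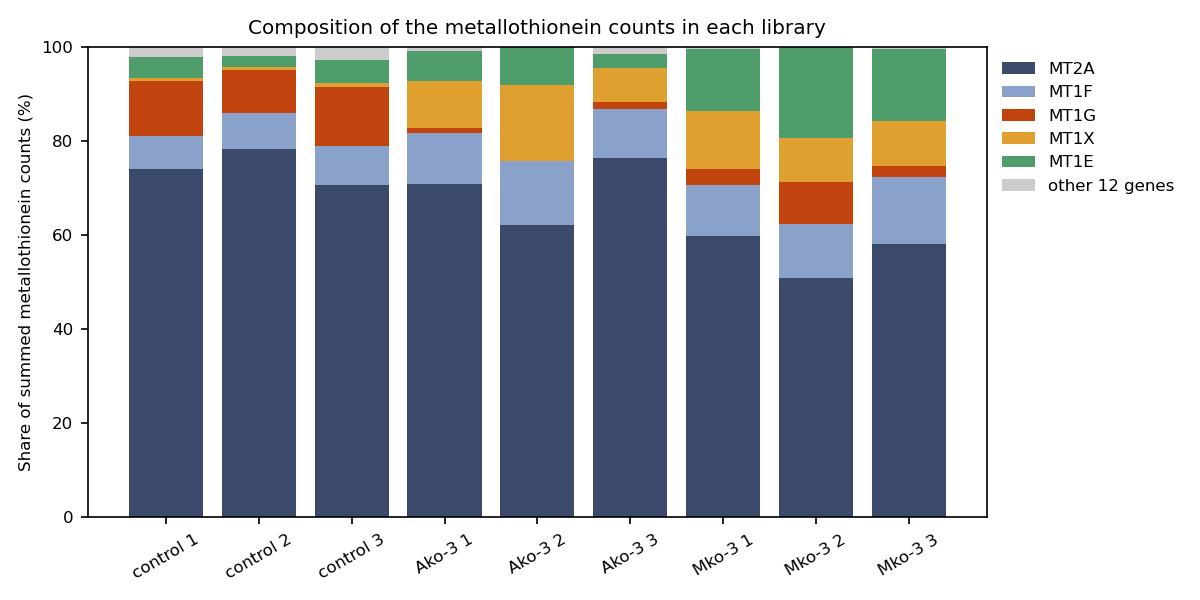
Share of the summed metallothionein counts (y axis, percent) held by MT2A, MT1F, MT1G, MT1X, MT1E and the other 12 genes in each of the 9 libraries. Bars add up to 100% of 68 to 1447 counts. MT1X widens and MT1G narrows in both clones, and MT1E widens most in Mko-3 libraries.

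Such shares could be altered if reads of 1 metallothionein gene were counted on another. The GENCODE release 44 transcripts of 21 genes and pseudogenes named as metallothioneins, and of MTF1 and SLC30A1, were compared. Of the 50-base stretches of the 8 genes, 1.24% (MT1F) to 18.2% (MT1M) also occurred in a transcript of another of these genes. For stretches of 150 bases, the length of a read, 0% were shared in any of the 8 genes, and at 100 bases only MT1H had shared stretches, 1.39% of them. These are exact matches in the reference, and how reads matching several places were counted is not given in the sources used here. A non-coding gene that overlaps MT1X in the files and an antisense pseudogene over MTF1 had 0 counts in every library.

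The other genes of zinc, copper and metal handling were counted from a list of 48 genes, of which 43 passed the filter on low counts. The list holds zinc exporters, zinc importers, copper handling genes, and genes of the metal and oxidant response. In Ako-3 cells 1 was called lower and 3 higher than in control (9.30% of the 43, beside 8.52% of all genes), and the median log2 fold change was 0.15 beside -0.01 over all genes. In Mko-3 cells 3 were lower and 3 higher (14.0%, beside 11.0%), with a median of 0.07 beside -0.01. Between the clones 2 were lower in Mko-3 cells (4.65%, beside 5.73%), with a median of 0.02 beside 0.00.

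**Figure D4:**
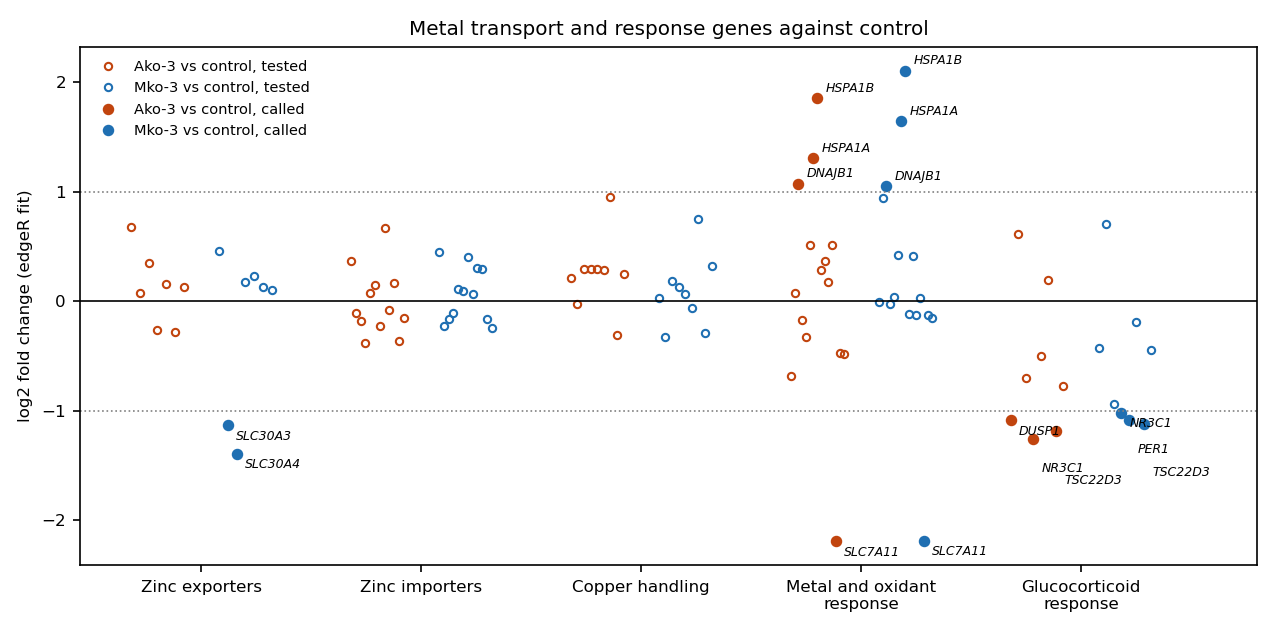
Log2 fold changes (y axis, edgeR) of the tested genes of each list in Ako-3 (red) and Mko-3 (blue) against control. Filled points were called and are named, open points were tested and not called, and dotted lines mark the threshold of 1. SLC7A11 lies at -2.19 in both clones, and HSPA1B lies at 1.85 in Ako-3 and 2.11 in Mko-3 cells.

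No zinc importer of 12 tested and no copper handling gene of 9 was called in any of the 3 comparisons. Of the zinc exporters other than SLC30A1, 7 were tested and 0 were called in Ako-3 cells. Over all genes, 8.52% were called in Ako-3 cells, 11.0% in Mko-3 cells and 5.73% between the clones. Counts of 0 among so few genes are near these shares. Genes not called were not all unchanged. The copper handling gene CP was at log2 0.95 (SE 0.0727) in Ako-3 and 0.75 (SE 0.0669) in Mko-3 cells. By adjusted p at any fold, 3 copper handling genes were higher and 1 lower in Mko-3 cells, where 26.9% and 27.1% of all genes were. In Mko-3 cells SLC30A3 and SLC30A4, which move zinc into vesicles, were called lower than in control cells, at levels near the floor. They were 28.6% of the 7 exporters, where 7.22% of all genes were called lower. SLC30A3 had 16, 12 and 24 counts in control libraries and 8, 7 and 8 in Mko-3 libraries (log2 -1.13, SE 0.422). SLC30A4 had 28, 13 and 24 counts in control and 8, 13 and 3 in Mko-3 libraries (log2 -1.39, SE 0.437). Both genes passed the filter on low counts only through control libraries, so these values are a description and carry no p. Neither call held with DESeq2. The SLC30A3 call was also lost without control replicate 3 or without any 1 of the Mko-3 libraries, and the SLC30A4 call without Mko-3 replicate 3.

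Among the 15 genes of the metal and oxidant response, the called genes were SLC7A11, HSPA1A, HSPA1B and DNAJB1 in each clone. They were 26.7% of the 15, beside 8.52% of all genes in Ako-3 and 11.0% in Mko-3 cells. DNAJB1 was the fourth by size and was named after its values were seen. SLC7A11, the cystine importer that feeds glutathione synthesis, was at 86.9 to 101 CPM in control, 20.4 to 21.6 in Ako-3 and 16.3 to 24.3 in Mko-3 libraries. On the log2 scale it stood at -2.19 (SE 0.083) against control in Ako-3 cells. In Mko-3 cells it stood at -2.19 (SE 0.117). The heat shock protein gene HSPA1B was at 4.69 to 6.56 CPM in control, 20.6 to 21.0 in Ako-3 and 23.0 to 26.1 in Mko-3 libraries. In Mko-3 cells it rose by 2.11 on the log2 scale (SE 0.127). HSPA1A, nearly identical to it in sequence, had 1.78 to 2.22, 4.49 to 5.44 and 5.61 to 6.69 CPM, and the division of reads between both is uncertain. The co-chaperone gene DNAJB1 had 62.0 to 68.4 CPM in control, 136 to 142 in Ako-3 and 132 to 149 in Mko-3 libraries. Both clones share the control libraries in these comparisons, and the lists were chosen with earlier results known. The values of the list genes are therefore a description and carry no p. The rest of this part of the list was not called in either clone.

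Of 8 genes for the glucocorticoid receptor and its response, 3 were called lower in each clone (37.5%, where 5.00% of all genes were called lower in Ako-3 and 7.22% in Mko-3 cells) and 0 between the clones. Both clones share the control libraries, and this list too was chosen with earlier results known, so its values are a description. FKBP5, a chaperone gene induced by glucocorticoids, was named after its values were seen. It went the other way, at log2 0.61 in Ako-3 and 0.70 in Mko-3 cells, under the fold threshold. NR3C1, the glucocorticoid receptor, was at 24.3 to 28.7 CPM in control, 9.22 to 13.1 in Ako-3 and 12.5 to 14.4 in Mko-3 libraries. In Mko-3 cells it fell by 1.02 on the log2 scale (SE 0.106). It came under the fold threshold without control replicate 3 (-0.95) or without Mko-3 replicate 1 or 3 (-0.98 and -0.97). TSC22D3, also known as GILZ, was at 34.0 to 40.6 CPM in control, 16.4 to 17.3 in Ako-3 and 16.1 to 19.2 in Mko-3 libraries. In Mko-3 cells it fell by 1.13 on the log2 scale (SE 0.0986). The phosphatase gene DUSP1 was the third in Ako-3 cells, at 11.6 to 14.4 CPM against 26.6 to 29.6 in control, and without Ako-3 replicate 3 its log2 fold change was -0.99. The clock gene PER1 was the third in Mko-3 cells (log2 -1.09, SE 0.0967), and without control replicate 1 it was at -0.97.

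Whether the whole region moved with the metallothionein genes was asked from their protein-coding neighbours within 1 Mb of the 119.1 kb cluster. Of 30 such genes 21 were tested. None was called lower than control in Ako-3 cells, where 5.00% of all genes were, or in Mko-3 cells, where 7.22% were, so with 21 genes a count of 0 is near the background and is no result about the region. The median log2 fold change of the 21 was 0.10 in Ako-3 and 0.34 in Mko-3 cells, beside -0.01 over all genes in each. Between the clones it was 0.18 beside 0.00. By adjusted p at any fold, 12 of the 21 were higher and 2 lower in Mko-3 cells, where 26.9% of all genes were higher and 27.1% lower. The cause of this upward shift was not tested. The nearest tested genes were BBS2, 44.8 kb before the cluster, and NUP93, 45.9 kb after it. BBS2 was at log2 -0.27 in Ako-3 and 0.04 in Mko-3 cells (adjusted p = 0.77 for Mko-3 with the quasi-likelihood test of edgeR). NUP93 was at 0.41 and 0.52 (adjusted p = 1.1e-05 for Mko-3). In Ako-3 cells 2 neighbours were called higher, NLRC5 (log2 1.94) and CCDC102A (1.28). This was 9.52% of the 21, where 3.52% of all genes were called higher and 8.52% in either direction. NLRC5 passed the filter on low counts there only through Ako-3 libraries. In Mko-3 cells CX3CL1, which encodes a chemokine (log2 1.10, SE 0.0745, adjusted p = 1.2e-10), and ADGRG1, which encodes an adhesion receptor (1.72, SE 0.231, adjusted p = 2.1e-06), were called higher. This was also 9.52%, where 3.82% of all genes were called higher and 11.0% in either direction. With so few genes called, nothing is read from these shares. Between the clones ADGRG1 was higher in Mko-3 cells (log2 2.06, adjusted p = 5.6e-12) and NLRC5 lower (-1.48, adjusted p = 0.00013).

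**Figure D5:**
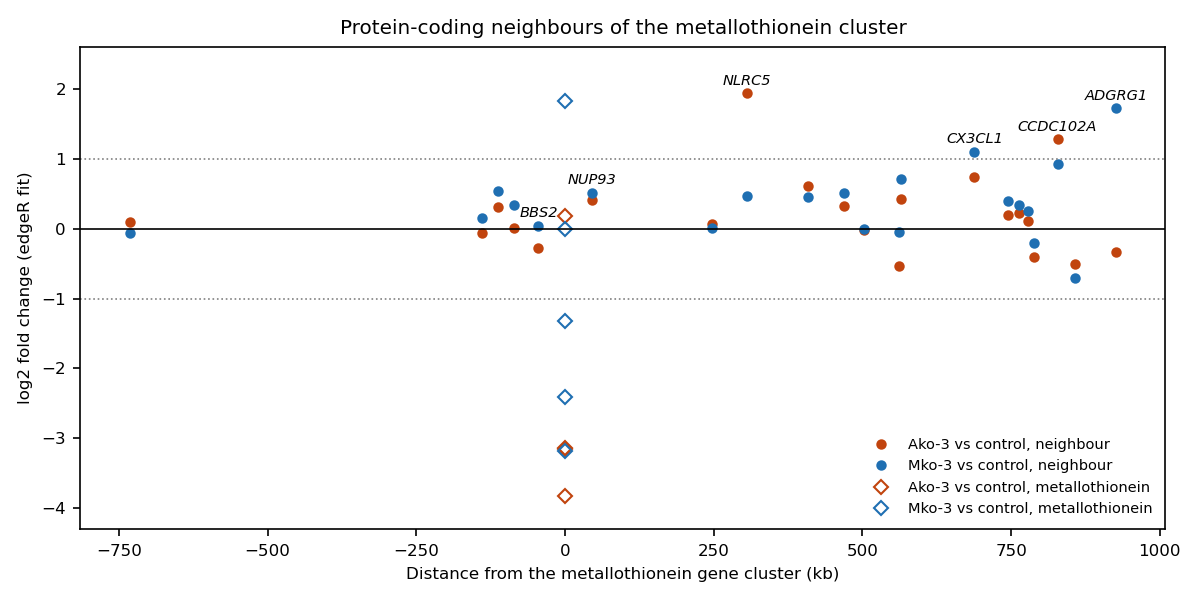
Log2 fold changes against control (y axis) of 21 tested neighbours, by distance from the metallothionein cluster (x axis, kb, negative before and positive after it), in Ako-3 (red) and Mko-3 (blue) cells. Open diamonds at 0 are metallothionein genes, drawn from -3.83 to 1.82, and filled points are neighbours, none of them under -1. MT1G is drawn for Mko-3 cells only, because Ako-3 cells had 2 counts of it.

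The genes whose profile over the 9 libraries was most like that of MT2A were ranked by the Euclidean distance of centred log2(CPM + 0.5) values, over 14328 genes with a mean of at least 1 CPM outside the metallothioneins. The nearest were FAM43A at a distance of 1.74, ASNS, which encodes asparagine synthetase, at 1.97, CHAC1, which encodes an enzyme that degrades glutathione, at 2.00, RB1CC1, an autophagy gene, at 2.14, and NKD2, an inhibitor of Wnt signalling, at 2.19. For comparison MT1G lay at 1.29, MT1F at 1.85, MT1E at 3.2 and MT1X at 5.18 from MT2A. MT1M, MT1H and MT1A, near the floor, lay at 3.41, 4.31 and 4.45. MT1G had a mean of 0.04 CPM in Ako-3 cells, where the added 0.5 shrinks its fall. Its short distance therefore does not show that it kept to MT2A there. Every control library had at least 11.6 counts of MT1G per 100 of MT2A, and no Ako-3 library had more than 1.92. FAM43A had 18.0 ± 2.28 CPM in control, 2.89 ± 0.941 in Ako-3 and 7.75 ± 1.04 in Mko-3 cells (SD, n = 3 each), the same order of groups as MT2A. The other 4 had similar levels in both clones, such as ASNS with 20.3 ± 1.81 CPM in control and 3.51 ± 0.426 and 3.70 ± 0.558 in Ako-3 and Mko-3 cells. SLC7A11 was at rank 8. Since MT2A was chosen for its pattern and the libraries fall into 3 groups, these distances are a description.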

How the data were processed

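Gene expression was measured by RNA-seq of poly(A) RNA in 9 libraries, 3 of each group, taken from the labels. The authors had reads aligned to hg38 with HISAT2 2.0.5 and counted on genes with featureCounts 1.5.0-p3, per the submitters' processing notes and the paper's methods, and deposited raw counts of 58735 genes. The notes also list GRCh37 and hg19, and the positions given are those of the files. The authors also deposited FPKM, the counts per gene length and library size, where the size used was found to be proportional to DESeq2 size factors of all 9 libraries. The strand setting and the treatment of reads with several matches are not given in the sources used here.

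The counts were tested with edgeR 4.0.16 in R 4.3.3 (TMM, filterByExpr with a minimum of 10, robust quasi-likelihood), fitting the 6 libraries of a comparison at a time, with Benjamini-Hochberg adjustment over all genes tested. CPM used TMM factors over all 9 libraries. A level was at the floor when each library of a group had at most 3 counts. The test was tried on simulated counts with known fold changes. Alternatives were DESeq2 1.42.0, RLE factors, other filters, 1 fit of all libraries, limma 3.58.1 on log2(FPKM + 1) and log2(FPKM + 0.1), a replicate block and leaving out each library. Levels with canonical transcript lengths were added after seeing the data. Total counts of 14638727 to 20179760 leave wide errors for genes near 10 counts. No 2 libraries were duplicates (chi-square per degree of freedom 2.54 to 9.86 within groups).

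The 10 genes and all lists were chosen with earlier results of these data known. Named were all 10 genes, up to 3 called genes of each list part and comparison by size of the log2 fold change, the called 16q13 neighbours with the nearest tested on each side, the 5 genes nearest in profile to MT2A, and APOB and MTTP. Promoter sequences came from RefSeq (GRCh38.p14), and those of MT1F, MT1G, MT1E, MT1M and MT1A were not used here. Transcripts came from GENCODE release 44. The other experiments of the study were not analysed here.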

Additional observations from a re-analysis of the deposited data

Results flagged for a closer look

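Genes of the lists and neighbours were mostly named for being called, so a number called among the named genes means nothing by itself. In the direct edgeR comparison of the clones, where 5.73% of 15528 genes were called, 8 of the genes named above were called. Of these, 4 are metallothionein genes chosen for their low Ako-3 counts, and MT1F, MT1X and MT1E passed the filter on low counts only through Mko-3 libraries, so their differences are a description. The log2 difference, Mko-3 minus Ako-3, was 1.43 for MT2A, 1.82 for MT1F, 1.65 for MT1X and 3.15 for MT1E. It was 2.06 for ADGRG1 and -1.48 for NLRC5, both neighbours of the cluster, and -1.21 for SLC30A3 and -1.74 for SLC30A4. The Mko-3 level of MT1E lay within the control range, while its Ako-3 level lay below every control library. The SLC30A3 and SLC30A4 values rest on 3 to 35 counts a library. Both genes passed the filter on low counts only through Ako-3 libraries, so their differences are a description too.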

How the results depend on the processing

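The number of the 10 genes called was 4 in each comparison, and 4 to 5 with DESeq2, RLE factors, no filter on low counts, all 9 libraries in 1 fit, limma on log2(FPKM + 0.1) and leaving out any library (range 4 to 4 in each comparison). With at least 10 counts required in every library, fewer genes could be tested, and 1, 2 and 1 were called in Ako-3 against control, Mko-3 against control and Mko-3 against Ako-3. Limma on log2(FPKM + 1), which shrinks changes of low genes, called 4, 2 and 2. The summed log2 ratio ranged from -4.04 to -3.55 in Ako-3, from -2.08 to -1.81 in Mko-3 and from 1.59 to 2.05 between the clones when any library was left out. Other scalings, FPKM and the 8 genes alone moved it by less than the spread between libraries.

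The metal list had 3 called genes in place of 6 in Mko-3 cells with limma on log2(FPKM + 1). Between the clones it had 1 in place of 2 with DESeq2 and 0 with at least 10 counts in every library and with limma at either pseudocount, and 1 to 2 when a library was left out, the loss being SLC30A3 without Ako-3 replicate 1 or 3 or without Mko-3 replicate 1 or 2. In Ako-3 cells it had 4 to 5 and in Mko-3 cells 4 to 6 when a library was left out. The neighbours called in Ako-3 cells, 2 in all, were 1 with at least 10 counts in every library, 0 with limma on log2(FPKM + 1) and 1 on log2(FPKM + 0.1). In Mko-3 cells 1 was left with limma on log2(FPKM + 1), and 2 to 3 when a library was left out. Between the clones 0 and 1 were left with limma at the larger and the smaller pseudocount. The cause of these losses was not tested. No result of the 10 genes changed sign while called.

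Over all genes, requiring 10 counts in every library called 841, 1113 and 511 genes in Ako-3 against control, Mko-3 against control and Mko-3 against Ako-3, and limma on log2(FPKM + 1) called 347, 479 and 213, against 1345, 1739 and 890. With limma on log2(FPKM + 1) the share called higher was 54.8% in Ako-3 and 47.0% in Mko-3 cells, against 41.3% and 34.6%. The groups share replicate numbers, but deviations of same-numbered libraries correlated at only -0.12 to 0.103, and not every library correlated best with its own number, so the libraries were not taken as pairs. With the replicate block 4 of the 10 genes were called in each comparison, with 1336, 1730 and 899 over all genes.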
